A study of Mus musculus with 9 samples.

Results

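The spinal cord of mice was examined in the chronic state, 21 days after complete transection at thoracic level 9, against cord at day 0. The comparison used 6 of the series' 9 RNA libraries: the 3 libraries of day 21 and the 3 whose titles carry the letter N, which were taken as day 0 because the design names 0, 3 and 21 days. The remaining 3 libraries, of day 3, entered the model to share the estimate of the spread and are otherwise not described. The labels give the tissue as spinal cord and name no strain, sex, age, genotype or treatment for any group. They do not say how far from the lesion the tissue was cut. None of the groups is labelled as sham-operated, so effects of the surgery and of the transection cannot be told apart. Whether the 3 libraries of a group stem from different animals is not stated, and the p-values reflect only how far these samples differ, part of which may be technical.

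Weeks after a cord injury, the acute bleeding and cell death have given way to a scar. Its core holds macrophages that have taken up myelin debris and fibroblasts that lay down collagen, and reactive astrocytes form a border around it. Axons below the cut stay separated from the brain, and neurons and myelin lost at the lesion are replaced to a small extent. Such tissue is known for proteins of phagocytosis and lipid handling, since myelin is rich in cholesterol, and for proteins that interferon induces through a promoter motif called the interferon-stimulated response element. The study's title names PANoptosis, a form of cell death in which parts of pyroptosis, apoptosis and necroptosis act together.

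Of 39 interferon response genes listed, 37 were higher at day 21 and none was lower (adjusted p under 0.05 by edgeR, against 17.9% higher and 11.3% lower among all tested genes). The promoter motif known for such genes is shown first because many of them hold it. The element was searched as 2 copies of GAAA with 2 bases of any kind between them, on both strands, in RefSeq promoters of build GRCm38.p6, which span 250 bases before to 50 bases after each gene's start. Of 27025 genes with a promoter entry 3.99% held the motif, and of 27 listed interferon genes with an entry 18 did. Among those 18, 17 were called higher at day 21. Of all 27 with an entry 25 were called higher, so the motif did not set the called genes apart. The exception among the 18 was Stat2, a signalling factor of the interferon receptor (log2 change 0.33 ± 0.14, adjusted p = 0.103 by edgeR, and 0.00138 without day 21 replicate 2). For some of these genes a single copy that lies before the start site is printed 5′ to 3′ on the gene's strand, with the motif in capitals. Further copies before a start site, among them that of Stat2, are not printed. The motif reads as 2 copies of TTTC where it lies on the opposite strand.
Ifit1 (chr19:34640770-34640809, plus strand): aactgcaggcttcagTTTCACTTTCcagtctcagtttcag
Ifit3 (chr19:34583358-34583397, plus strand): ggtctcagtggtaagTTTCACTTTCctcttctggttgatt
Ifit3b (chr19:34607754-34607793, plus strand): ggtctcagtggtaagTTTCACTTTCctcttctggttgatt
Isg15 (chr4:156200860-156200899, minus strand): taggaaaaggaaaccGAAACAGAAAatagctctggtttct
Rsad2 (chr12:26456548-26456587, minus strand): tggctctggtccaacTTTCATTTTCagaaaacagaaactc
Oas3 (chr5:120777710-120777749, minus strand): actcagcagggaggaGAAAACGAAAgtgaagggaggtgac
Bst2 (chr8:71537572-71537611, minus strand): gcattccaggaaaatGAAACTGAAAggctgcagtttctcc
Gbp2 (chr3:142620589-142620628, plus strand): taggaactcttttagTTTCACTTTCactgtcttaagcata
Gbp7 (chr3:142530268-142530307, plus strand): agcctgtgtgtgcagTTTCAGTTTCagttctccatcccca
Igtp (chr11:58199507-58199546, plus strand): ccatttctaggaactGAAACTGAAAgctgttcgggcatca
The printed stretches of Ifit3 and Ifit3b are identical, and these neighbouring copies may share reads, so their separate values are uncertain. A match of letters is a description and not a measured binding site.

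The genes behind these promoters were chosen by the motif search. Ifit1, which binds foreign RNA, measured 1.3, 1.17 and 1.24 FPKM at day 0 and 6.5, 5.51 and 6.98 FPKM at day 21. FPKM are the deposited counts per gene length and library size. All 3 day 21 values lay above all 3 day 0 values, and the same held for Isg15, a ubiquitin-like protein (3.03, 2.77 and 1.8 FPKM at day 0 and 8.56, 18.2 and 9.53 FPKM at day 21). Their log2 fold changes, each with its standard error, were 2.23 ± 0.15 and 2.11 ± 0.32 (adjusted p 9.49e-06 and 0.00133 by edgeR). The membrane tether Bst2 had a wide spread at day 21, with 28.2, 60.9 and 18.3 FPKM in replicates 1, 2 and 3 against 7.3, 4.4 and 5.13 FPKM at day 0. The highest value belonged to replicate 2, which is described next. Rsad2, an antiviral enzyme, Oas3, a sensor of double-stranded RNA, and the GTPases Gbp2 and Igtp rose as well, by 1.83, 1.77, 2.21 and 1.66 on the log2 scale (adjusted p 0.000839, 0.00746, 1.47e-05 and 5.16e-05 by edgeR).

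Counts in genes summed to 15763769 to 24022923 per library at day 0 and 14299679 to 15756253 at day 21, which sets the precision of all values. Day 21 replicate 2 stood apart from its group. Its log2 expression correlated at 0.943 and 0.935 with replicates 1 and 3, which correlated with each other at 0.987, and it lay on the other side of the third principal component (42.8 against -41.7 and -51.7; 11.8% of the variance). A weighted fit gave it a sample weight of 0.0583 against 1.91 and 1.02. Gene length moved with it. Over the 4124 tested genes with the shortest length behind the FPKM values it stood a median of 0.45 log2 units above replicates 1 and 3, and over the 4124 longest genes its median was -0.51. The counts below are therefore also given without it. Day 0 replicate 1 had a weight of 0.354 against 1.75 and 2.03.

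**Figure D1:**
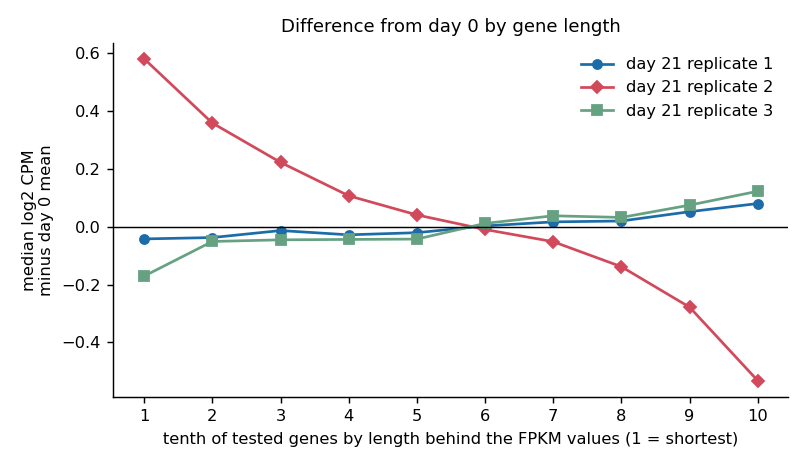
Median difference in log2 CPM (counts scaled to library size) from the day 0 mean (y axis) for 10 equal bins of the tested genes ordered by length (x axis, 1 = shortest), 1 line per day 21 library. Replicate 2 falls from 0.58 in the shortest bin to -0.53 in the longest, and replicates 1 and 3 stay between -0.17 and 0.12.

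Defining markers of the labelled tissue were abundant. At day 0 the neuronal synapse protein Snap25 measured 309, 329.8 and 331 FPKM, the myelin basic protein Mbp 179, 262 and 323 FPKM and the astrocyte filament Gfap 539, 557 and 562 FPKM. At day 21 the neural markers Snap25 and Mbp measured 269, 250.5 and 279 FPKM and 240.1, 185 and 277 FPKM. Snap25 was lower (log2 change -0.41 ± 0.09, adjusted p = 0.00984 by edgeR), a call lost when only the 6 libraries of both days were fitted, with a filter of 5 FPKM in 3 libraries and with limma on log2(FPKM + 1). Mbp did not pass the test (log2 change -0.25 ± 0.23, adjusted p = 0.451 by edgeR). In bulk tissue, fewer cells of a type and less RNA per cell cannot be told apart.

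Across the genome the chronic cord differed from day 0 in 29.2% of tested genes. Of 16494 genes, 2949 were higher (17.9%) and 1864 lower (11.3%) at a Benjamini-Hochberg adjusted p under 0.05 by edgeR, two-sided, which is what "called" means below. The rises were larger than the falls. The median called rise was 1.23 log2 units and the median called fall 0.59, and 1811 rises but 124 falls reached 2-fold. At least 16-fold differences numbered 148 among the higher genes and 1 among the lower genes. Without day 21 replicate 2, 4207 of 16739 genes were higher (25.1%) and 3748 lower (22.4%). Of the calls made with all libraries, 2854 of the higher and 1828 of the lower genes were also called in the same direction without it, and none was called in the opposite direction. The number of lower genes rested on single libraries elsewhere too, with 1072 without day 0 replicate 2 and 1011 without day 0 replicate 3. With limma on log2(FPKM + 1), which keeps the deposited scaling, 3320 genes were higher and 1218 lower.

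**Figure D2:**
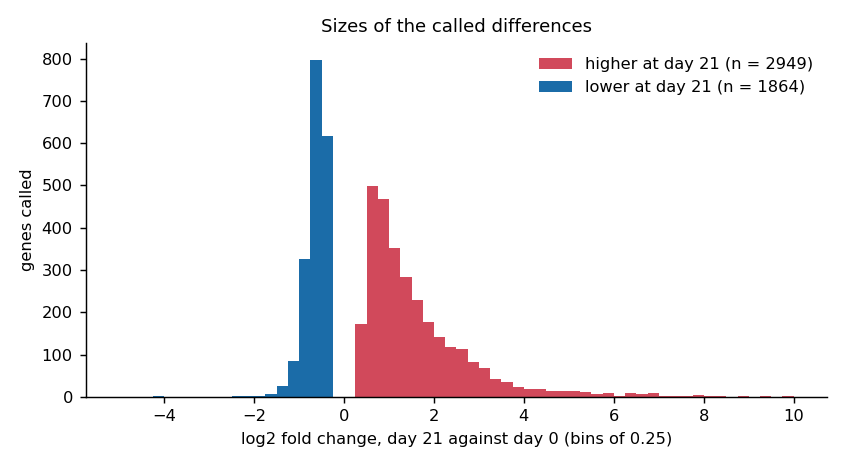
Number of called genes (y axis) by log2 fold change of day 21 against day 0 (x axis, bins of 0.25), higher genes in red and lower genes in blue. The 2949 higher genes extend past 4 log2 units, and all but 5 of the 1864 lower genes lie above -2.

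The genes with the largest rises among named genes at 5 FPKM or more include genes known from phagocytes, injured neurons and muscle. Cst7, an inhibitor of lysosomal cysteine proteases (chromosome 2, 150570415 to 150578944, build GRCm38), measured 0.211, 0.257 and 0.173 FPKM at day 0 and 34.5, 59.1 and 36.7 FPKM at day 21 (log2 change 7.5 ± 0.32, adjusted p = 9.11e-07 by edgeR). Gpnmb, a glycoprotein of lipid-loaded macrophages (chromosome 6, 49036546 to 49070929), measured 0.713, 0.688 and 0.676 FPKM at day 0 and 54.3, 47.9 and 51.8 FPKM at day 21 (log2 change 6.09 ± 0.12, adjusted p = 2.45e-08 by edgeR). Its 3 day 21 libraries lay within a narrow band, with replicate 2 the lowest. Itgax, the integrin CD11c (chromosome 7, 128129547 to 128150657), and Clec7a, the beta-glucan receptor dectin-1 (chromosome 6, 129461591 to 129472779), measured 7.32, 7.19 and 8.09 FPKM and 16.3, 20.2 and 17.3 FPKM at day 21 against 0.102, 0.12 and 0.118 FPKM and 0.214, 0.0544 and 0.243 FPKM at day 0. Both rose in all 3 libraries (log2 changes 5.93 ± 0.16 and 6.53 ± 0.32; adjusted p 2.01e-07 and 2.07e-06 by edgeR). Lilrb4a, an inhibitory receptor of myeloid cells, rose as well (log2 change 7.41 ± 0.35, adjusted p = 1.8e-06 by edgeR), but 98.9% of its exon bases overlap another gene model and its value is uncertain.

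Sprr1a, a proline-rich protein made by neurons that regrow axons (chromosome 3, 92483952 to 92485895), measured 0.103, 0.157 and 0.423 FPKM at day 0 and 51.3, 78.9 and 49.6 FPKM at day 21. No day 21 library came near the day 0 range (log2 change 7.92 ± 0.36, adjusted p = 1.38e-06 by edgeR). The transglutaminase Tgm1 (chromosome 14, 55700009 to 55713492) measured 0.0268, 0.0204 and 0.073 FPKM at day 0 and 6.44, 8.02 and 5.71 FPKM at day 21 (log2 change 7.21 ± 0.30, adjusted p = 8.53e-07 by edgeR). The secreted CCN protein Wisp2 (chromosome 2, 163820861 to 163833146) measured 0.27, 0.247 and 0.221 FPKM at day 0 and 18.7, 30.5 and 15.6 FPKM at day 21 (log2 change 6.3 ± 0.29, adjusted p = 1.56e-06 by edgeR). Myh1, a fast myosin heavy chain of skeletal muscle (chromosome 11, 67200052 to 67224575), measured 0.133, 0.167 and 0.071 FPKM at day 0 and 7.17, 8.83 and 7.02 FPKM at day 21 (log2 change 5.82 ± 0.31, adjusted p = 3.35e-06 by edgeR). Apoc4, an apolipoprotein beside Apoe (chromosome 7, 19678094 to 19681416), had no count at day 0 and 4.38, 15.6 and 4.22 FPKM at day 21, which makes it at least 65.2-fold higher against a floor of 3 counts summed over the day 0 group. Such bounds, and the 95% intervals given for genes with 1 to 3 counts, cover counting error only.

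By amount of transcript, measured as the rise in mean FPKM, the mitochondrial gene mt-Atp6 rose by more than any gene named here. How its reads were assigned was not tested. Leaving out unnamed gene models and mitochondrial, ribosomal, haemoglobin and antigen receptor genes, the astrocyte filament Gfap had the largest rise among called genes. Gfap measured 539, 557 and 562 FPKM at day 0 and 1577, 1934 and 1548 FPKM at day 21 (log2 change 1.48 ± 0.10, adjusted p = 9.04e-06 by edgeR). Apoe, which carries cholesterol and other lipids between cells (chromosome 7, 19696109 to 19699166), measured 149, 219 and 239.8 FPKM at day 0 and 825, 1255 and 841 FPKM at day 21 (log2 change 2.13 ± 0.22, adjusted p = 0.000168 by edgeR). B2m, the light chain of MHC class I (chromosome 2, 122147686 to 122153083), measured 129, 137 and 141 FPKM at day 0 and 628, 862 and 429 FPKM at day 21 (log2 change 2.1 ± 0.22, adjusted p = 0.000154 by edgeR). The lysosomal protease Ctsd measured 171, 154 and 156 FPKM at day 0 and 771, 1109.6 and 739.6 FPKM at day 21 (log2 change 2.32 ± 0.14, adjusted p = 7.19e-06 by edgeR), and 34.4% of its exon bases overlap another gene model. The zinc-binding metallothioneins Mt1 and Mt2 measured 1467, 2844 and 1073 FPKM and 963, 2100.4 and 823 FPKM at day 21, and in both the value of replicate 2 was close to or above 2 times that of the next library. Their log2 fold changes were 0.97 ± 0.29 and 1.46 ± 0.29 (adjusted p 0.0352 and 0.00584 by edgeR). Without replicate 2 these were 0.50 and 0.94, and Mt1 passed the test in none of the fits that left out 1 day 0 library (adjusted p up to 0.118). Mt2 overlaps another gene model over 73.5% of its exon bases.

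The lipid-laden phagocyte list, with genes of macrophages and microglia that take up myelin, had the highest fitted median of all lists with all libraries, but not without replicate 2. Of 28 genes 26 were higher and 1 lower, with a median log2 fold change of 3.5 against 0.018 over all tested genes. Without replicate 2 the counts were 26 and 1 and the median was 3.07, below the fitted median of 3.37 of the peripheral sensory neuron list. That fitted median includes ratios of genes with 0 to 3 day 0 counts. By library the sensory list's median difference from day 0 was 2.03 and 2.35 in replicates 1 and 3, against 3.23 and 2.99 for the phagocyte list. The phagocyte list was written with earlier results on these samples known, so its direction is no independent evidence, and this holds for all lists below. Members named below as exceptions of a list, or as lacking a call, were picked after their values were seen. Mmp12, the macrophage elastase, had no count at day 0 and measured 1.66, 1.73 and 1.46 FPKM at day 21, at least 284-fold higher. Atp6v0d2, a subunit of the proton pump of lysosomes, was 162-fold higher (95% interval of the counts 44.5 to 1347), and the secreted macrophage protein Cd5l was 161-fold higher (95% interval of the counts 28.4 to 6412). The exception was Syngr1, a synaptogyrin, which was lower (log2 change -0.73 ± 0.09, adjusted p = 0.000378 by edgeR).

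The list of homeostatic microglia genes, which also holds a gene of activated microglia, Gpr84, rose in part. Of 19 homeostatic microglia genes 13 were higher and none was lower (median 1.28; 13 higher, median 1.26, without replicate 2). The chemokine receptor Cx3cr1 measured 7.21, 6.83 and 7.4 FPKM at day 0 and 24, 21.4 and 24.3 FPKM at day 21 (log2 change 1.58 ± 0.10, adjusted p = 8.68e-06 by edgeR). The orphan receptor Gpr84, which activated microglia raise, measured 0.779, 0.941 and 0.769 FPKM at day 0 and 7.21, 8.83 and 6.68 FPKM at day 21 (log2 change 3.06 ± 0.17, adjusted p = 3.38e-06 by edgeR), with 39.5% exon overlap with another gene model. The scavenger receptor-like Fcrls rose from 6.4, 4.77 and 4.18 FPKM to 36.7, 51.4 and 39.8 FPKM (log2 change 2.93 ± 0.17, adjusted p = 6.03e-06 by edgeR). P2ry12, the purine receptor of microglial processes, measured 1.45, 1.6 and 1.48 FPKM at day 0 and 3.92, 1.9 and 3.87 FPKM at day 21. Its replicate 2 lay close to the day 0 libraries, and its call (log2 change 0.98 ± 0.26, adjusted p = 0.0197 by edgeR) was lost without any 1 library other than day 21 replicate 2 (adjusted p up to 0.0657). Without replicate 2 its log2 fold change was 1.26 (adjusted p = 5.05e-06). Sall1, the microglial identity factor, did not pass the test (log2 change 0.016 ± 0.27, adjusted p = 0.975 by edgeR). The microglial marker Tmem119 lay 1.15, 1.59 and 1.03 log2 units above its day 0 mean in day 21 replicates 1, 2 and 3. Slc2a5 lay -0.36, -0.14 and -0.03 from its day 0 mean, and Crybb1 -0.35, 0.92 and -0.01.

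Monocyte and border macrophage genes were higher in 17 of 19 cases and lower in none (median 2.47; 17 higher, median 2.3, without replicate 2). Cybb, the membrane subunit of the phagocyte NADPH oxidase, measured 0.0927, 0.151 and 0.117 FPKM at day 0 and 3.73, 2.93 and 4.04 FPKM at day 21 (log2 change 4.78 ± 0.24, adjusted p = 2.36e-06 by edgeR). Lyz2, lysozyme of myeloid cells, measured 16.8, 16.2 and 14.1 FPKM at day 0 and 345, 552 and 350.2 FPKM at day 21 (log2 change 4.6 ± 0.19, adjusted p = 8.88e-07 by edgeR). The 2 listed genes without a call were Folr2 and Lyve1, both markers of resident border macrophages (log2 changes 0.81 ± 0.42 and 0.58 ± 0.22, adjusted p 0.182 and 0.0765 by edgeR). Other listed markers of such macrophages were among the 17 higher genes. Mrc1 lay 1.36, 1.42 and 1.60 log2 units above its day 0 mean in replicates 1, 2 and 3, and Cd163 lay 1.02, 0.97 and 0.94 above.

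Complement genes, whose products tag debris and synapses for uptake, were higher in 20 of 23 cases and lower in none (median 2.5; 20 higher, median 2.4, without replicate 2). The 3 chains of C1q, which start the classical pathway, moved together. C1qa measured 44.7, 34.6 and 35 FPKM at day 0 and 272, 619.8 and 266 FPKM at day 21, with replicate 2 above 2 times the others. The log2 fold changes of C1qa, C1qb and C1qc were 3.21 ± 0.31, 2.99 ± 0.26 and 3.0 ± 0.25 (adjusted p 0.000102, 5.36e-05 and 3.95e-05 by edgeR), and without replicate 2 they were 2.71, 2.58 and 2.65. C3ar1, the receptor for the C3a fragment, measured 0.406, 0.457 and 0.58 FPKM at day 0 and 7.24, 7.71 and 7.6 FPKM at day 21 (log2 change 3.84 ± 0.15, adjusted p = 8.28e-07 by edgeR). Itgb2, the beta chain of the complement receptor integrins, rose from 1.69, 1.95 and 1.61 FPKM to 16.7, 15.6 and 17.6 FPKM (log2 change 3.13 ± 0.12, adjusted p = 8.28e-07 by edgeR).

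**Figure D3:**
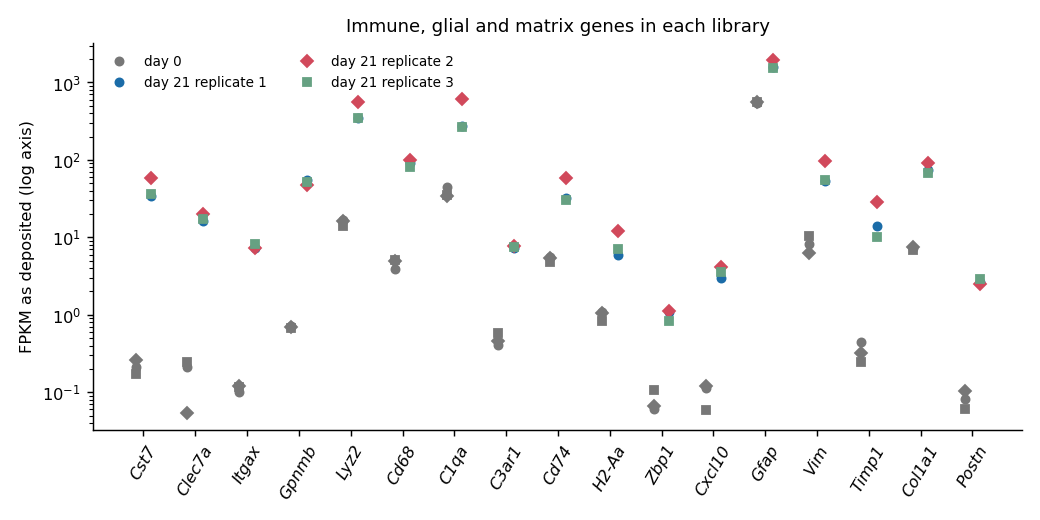
FPKM as deposited (y axis, log scale) of 17 immune, astrocyte and matrix genes (x axis) in each library, with day 0 in grey and the 3 day 21 libraries in colour. For each gene shown the 3 day 21 points lie above the 3 day 0 points, and replicate 2 is the lowest day 21 point for Itgax, Gpnmb and Postn and the highest for the others.

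Lysosomal genes rose in part. Of 32 genes 21 were higher and 1 lower (median 0.67; 21 and 2, median 0.75, without replicate 2). The lysosomal sialomucin Cd68, a macrophage marker, measured 3.91, 4.88 and 5.03 FPKM at day 0 and 90.7, 101 and 82.2 FPKM at day 21 (log2 change 4.18 ± 0.15, adjusted p = 7.39e-07 by edgeR). The cathepsins Ctss and Ctsz measured 275, 394 and 272 FPKM and 223, 357 and 205 FPKM at day 21 against 41.5, 36.7 and 35.2 FPKM and 42.2, 38.3 and 40.3 FPKM at day 0. Their log2 fold changes were 2.93 ± 0.15 and 2.57 ± 0.19 (adjusted p 2.36e-06 and 1.93e-05 by edgeR). The membrane protein Lamp1 (log2 change 0.097 ± 0.09, adjusted p = 0.435 by edgeR) and the saposin precursor Psap (log2 change 0.074 ± 0.09, adjusted p = 0.572 by edgeR) did not pass the test. The motif TCACGTGA, known from lysosomal gene promoters as the CLEAR element, reads the same on both strands and was found in 3 of 26 listed genes with a promoter entry against 1.12% of all genes. These were Ctsa, Ctsd and Mcoln1. Shown is the copy of Ctsd, the gene of this list with the highest FPKM at day 21.
Ctsd (chr7:142387904-142387941, minus strand): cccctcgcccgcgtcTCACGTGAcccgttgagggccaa

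Genes of lipid export were higher in part. Of 18 lipid efflux and storage genes 11 were higher and 0 lower (median 0.57). Without replicate 2 there were 11 higher and 4 lower (median 0.47). Abca1, which passes cholesterol to apolipoproteins, measured 3.21, 2.99 and 3.17 FPKM at day 0 and 17.7, 9.21 and 18.9 FPKM at day 21, with replicate 2 the lowest of its group (log2 change 2.17 ± 0.25, adjusted p = 0.000272 by edgeR). Apoc1 measured 2.51, 2.07 and 0.926 FPKM at day 0 and 14.2, 40.6 and 10.3 FPKM at day 21, with replicate 2 the highest (log2 change 3.4 ± 0.56, adjusted p = 0.00205 by edgeR; 2.6 without it). Acp5, the acid phosphatase of osteoclasts and macrophages, rose from 0.31, 0.197 and 0.106 FPKM to 1.97, 3.63 and 2.82 FPKM (log2 change 3.57 ± 0.35, adjusted p = 0.000107 by edgeR). Apoc2 had no count at day 0 and was at least 88.5-fold higher, with 79.5% of its exon bases in another gene model. The partner transporter Abcg1 did not pass the test (log2 change 0.019 ± 0.14, adjusted p = 0.941 by edgeR).

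Cholesterol biosynthesis genes were lower in most cases. Of 25 genes 18 were lower and none was higher, with a median log2 fold change of -0.79 against 0.018 over all genes. Without replicate 2, 22 were lower and the median was -0.79. Sqle, which oxidises squalene, measured 11.8, 14.6 and 13.7 FPKM at day 0 and 6.89, 6.41 and 7.58 FPKM at day 21 (log2 change -1.07 ± 0.13, adjusted p = 0.000354 by edgeR). All its day 21 libraries lay below all day 0 libraries. Insig1, a sterol-regulated brake on the pathway, measured 47.9, 40.3 and 39.2 FPKM at day 0 and 22.4, 21.4 and 22.8 FPKM at day 21 (log2 change -1.06 ± 0.10, adjusted p = 0.000101 by edgeR). Genes without a call included Ebp, Fdps, Idi1, Lss, Pmvk and Tm7sf2, with log2 fold changes from -0.63 to -0.28. The motif TCACNCCAC, one form of the sterol regulatory element, was found on either strand in 1.44% of genes with a promoter entry and in 1 of 17 genes of this list, Hmgcs1, the synthase that feeds the pathway (log2 change -0.84 ± 0.09, adjusted p = 0.00021 by edgeR). Its copy before the start site is shown for that reason.
Hmgcs1 (chr13:119690199-119690237, plus strand): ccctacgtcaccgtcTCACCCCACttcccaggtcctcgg

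**Figure D4:**
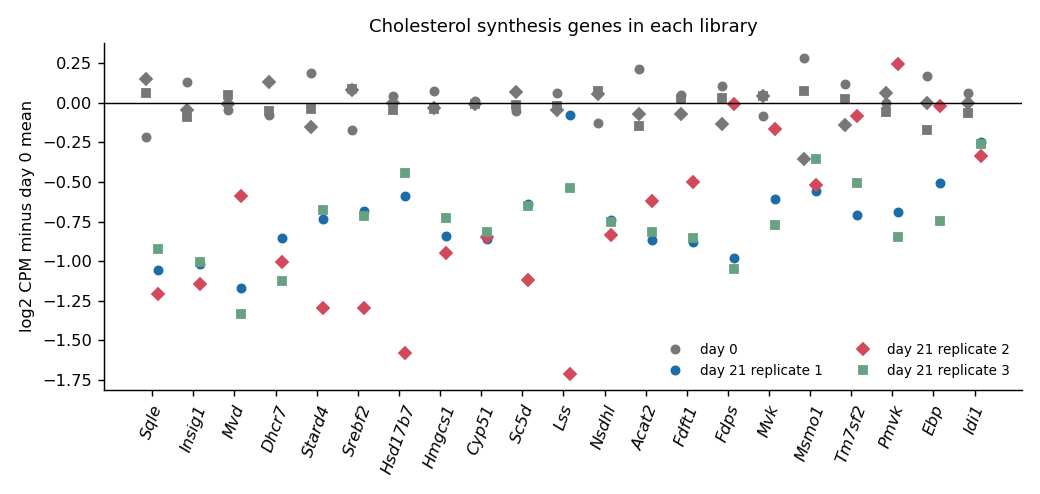
Difference in log2 CPM from the day 0 mean (y axis) of cholesterol biosynthesis genes (x axis) in each library, with day 0 in grey and the 3 day 21 libraries in colour. Replicates 1 and 3 lie below 0 for every gene shown, and replicate 2 lies near 0 for Fdps, Ebp and Tm7sf2, above 0 for Pmvk and far below the others for Lss and Hsd17b7.

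Among fatty acid and myelin lipid synthesis genes, several of lipogenesis fell. Of 22 genes 7 were lower and 2 higher (median -0.27). Acly, which makes cytosolic acetyl-CoA, measured 76.1, 73.5 and 71.4 FPKM at day 0 and 43.5, 33.1 and 47 FPKM at day 21 (log2 change -0.96 ± 0.14, adjusted p = 0.000978 by edgeR). Fasn, fatty acid synthase, measured 33.6, 35 and 35.6 FPKM at day 0 and 23.1, 23.5 and 24.2 FPKM at day 21 (log2 change -0.68 ± 0.10, adjusted p = 0.00139 by edgeR). Scd2, the desaturase that is abundant in brain and cord (chromosome 19, 44293676 to 44306864), measured 778, 720.2 and 732 FPKM at day 0 and 561, 424 and 568 FPKM at day 21 (log2 change -0.64 ± 0.12, adjusted p = 0.00494 by edgeR). It was among the 6 largest falls in mean FPKM. Acss2, which activates acetate, fell too (log2 change -0.76 ± 0.11, adjusted p = 0.00096 by edgeR). The count moved with single libraries: 11 were lower and 1 higher without replicate 2, and 5, 5 and 4 were lower and none higher without day 0 replicates 1, 2 and 3.

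Interferon response genes had a median log2 fold change of 2.06, and 2.0 without replicate 2 with 38 of 39 higher. The sensor of Z-form nucleic acids Zbp1 measured 0.0603, 0.0656 and 0.106 FPKM at day 0 and 1.09, 1.11 and 0.825 FPKM at day 21 (log2 change 3.58 ± 0.25, adjusted p = 1.33e-05 by edgeR). Iigp1, a GTPase that attacks pathogen vacuoles, measured 0.44, 0.467 and 0.346 FPKM at day 0 and 2.91, 2.75 and 3.76 FPKM at day 21 (log2 change 2.78 ± 0.23, adjusted p = 3.95e-05 by edgeR). Oas1a rose from 0.464, 0.404 and 0.301 FPKM to 2.46, 3.76 and 2.56 FPKM (log2 change 2.76 ± 0.24, adjusted p = 5.6e-05 by edgeR). Ifi27l2a measured 3.42, 1.1 and 2.21 FPKM at day 0 and 18, 41.6 and 9.82 FPKM at day 21, with replicate 2 the highest (log2 change 3.18 ± 0.54, adjusted p = 0.00243 by edgeR). Gbp7 measured 0.197, 0.184 and 0.226 FPKM at day 0 and 2.5, 0.431 and 2.56 FPKM at day 21 (log2 change 3.06 ± 0.68, adjusted p = 0.00945 by edgeR). Its replicate 2 was far below the other day 21 libraries and still above day 0. Mx1, a GTPase that blocks viruses, had 2 counts at day 0 and was 97.2-fold higher (95% interval of the counts 26.5 to 809).

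Antigen presentation genes were higher for both classes of MHC. All 10 tested class II genes were higher (median 2.54; 10 higher, median 2.19, without replicate 2), and of 19 class I presentation genes 14 were higher and none was lower (median 1.65; 15 higher, median 1.25). Both lists stood higher in replicate 2 than in the other day 21 libraries, by a median of 0.75 and 0.51 log2 units. The invariant chain Cd74 measured 5.63, 5.48 and 4.76 FPKM at day 0 and 32.5, 57.5 and 30.1 FPKM at day 21 (log2 change 2.79 ± 0.23, adjusted p = 3.95e-05 by edgeR). The class II alpha chain H2-Aa measured 1.07, 1.04 and 0.842 FPKM at day 0 and 5.95, 12 and 7.04 FPKM at day 21 (log2 change 2.94 ± 0.26, adjusted p = 5.46e-05 by edgeR). The immunoproteasome subunit Psmb8 measured 1.27, 0.808 and 0.738 FPKM at day 0 and 3.05, 7.72 and 3.49 FPKM at day 21 (log2 change 2.2 ± 0.35, adjusted p = 0.00178 by edgeR; 1.67 without replicate 2). H2-Q4, H2-Q6 and H2-Q7 are near-identical class I genes whose reads may be split among them, so their rises (2.21, 2.75 and 2.19) are uncertain.

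Chemokine and cytokine genes were higher in 18 of 28 cases and lower in 1 (median 2.58; 20 and 2, median 2.41, without replicate 2). Ccl3, a macrophage chemokine, measured 0.489, 0.414 and 0.296 FPKM at day 0 and 21.5, 26.3 and 17.7 FPKM at day 21 (log2 change 5.59 ± 0.24, adjusted p = 9.11e-07 by edgeR). Its relative Ccl4 measured 0.505, 0.288 and 0.344 FPKM at day 0 and 5.0, 19.4 and 6.46 FPKM at day 21 (log2 change 4.54 ± 0.61, adjusted p = 0.000732 by edgeR; 3.72 without replicate 2). Cxcl10, which draws T cells after interferon, measured 0.114, 0.12 and 0.0596 FPKM at day 0 and 2.94, 4.11 and 3.52 FPKM at day 21 (log2 change 5.02 ± 0.23, adjusted p = 1.56e-06 by edgeR). Its relative Cxcl9 had 2 counts at day 0 and was 73.5-fold higher (95% interval of the counts 19.9 to 614). The T cell chemokine Ccl5 measured 0.243, 0.211 and 0.0473 FPKM at day 0 and 2.22, 4.35 and 1.34 FPKM at day 21 (log2 change 3.76 ± 0.59, adjusted p = 0.00168 by edgeR). Ccl8 was 13.8-fold higher (95% interval of the counts 4.36 to 70.3). The 1 lower gene was Cx3cl1, the neuronal ligand of Cx3cr1 (log2 change -0.65 ± 0.10, adjusted p = 0.0012 by edgeR).

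Transcripts that mark lymphocytes were rare. The T and NK cell list had 10 tested genes of 27, and 2 of these were higher (4 without replicate 2). Among all tested genes 17.9% were higher (25.1% without replicate 2). T cell receptor components Cd3e and Cd3g, too low to be tested and named after their values were seen, had no count at day 0 and 0.575, 0.527 and 0.341 FPKM and 0.333, 0.876 and 0.262 FPKM at day 21, at least 12.2- and 11.5-fold higher. Of 7 tested B and plasma cell genes 5 were higher (5 higher and 1 lower without day 21 replicate 2, and 3 higher without day 0 replicate 2). The immunoglobulin light chain Igkc measured 1.25, 0.835 and 0.854 FPKM at day 0 and 6.56, 9.69 and 6.31 FPKM at day 21 (log2 change 2.77 ± 0.40, adjusted p = 0.00114 by edgeR). Cd22, a lectin of B cells and activated microglia, measured 0.012, 0.0243 and 0.0163 FPKM at day 0 and 1.44, 1.43 and 1.23 FPKM at day 21 (log2 change 6.17 ± 0.24, adjusted p = 8.28e-07 by edgeR). Neutrophil genes were higher in 13 of 14 cases and lower in 1 (median 2.48, or 2.41 with genes of 0 to 3 day 0 counts at their bound or counted ratio; 13 and 1, median 2.21, without replicate 2). Csf3r, the receptor for granulocyte growth factor, measured 1.2, 1.25 and 1.74 FPKM at day 0 and 9.65, 9.03 and 9.55 FPKM at day 21 (log2 change 2.63 ± 0.16, adjusted p = 6.87e-06 by edgeR). The granule protein Ngp measured 3.88, 3.37 and 4.69 FPKM at day 0 and 18.4, 28 and 20.5 FPKM at day 21 (log2 change 2.35 ± 0.19, adjusted p = 3.1e-05 by edgeR). The calgranulin S100a8 measured 1.35, 0.58 and 0.346 FPKM at day 0 and 4.26, 15.4 and 4.62 FPKM at day 21, with replicate 2 the highest (log2 change 3.2 ± 0.59, adjusted p = 0.00381 by edgeR; 2.34 without it). The lower one was the gelatinase Mmp9 (log2 change -1.22 ± 0.11, adjusted p = 5.64e-05 by edgeR). Of 7 tested dendritic cell genes none was higher and Flt3 was lower (log2 change -0.62 ± 0.13, adjusted p = 0.00589 by edgeR).

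**Figure D5:**
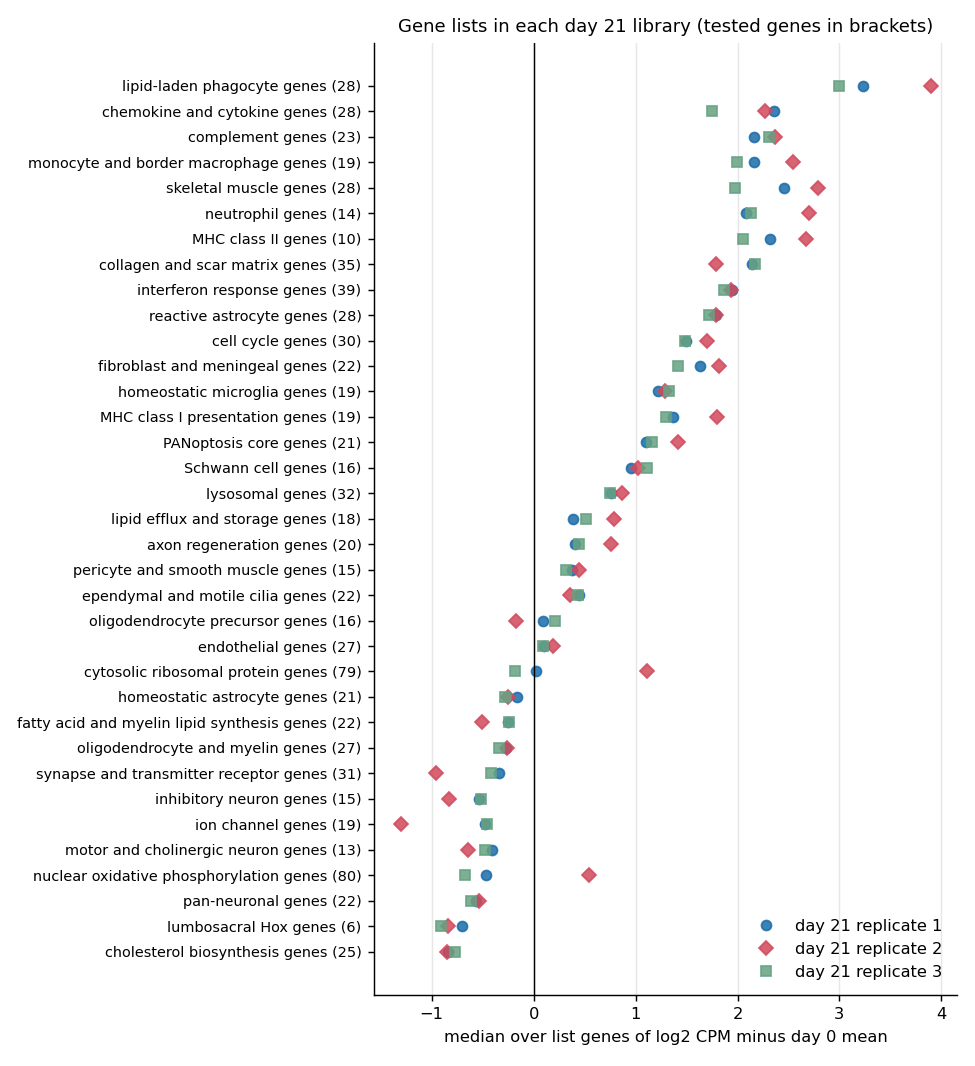
Median over the tested genes of each list (number in brackets) of the difference in log2 CPM from the day 0 mean (x axis), 1 point per day 21 library. Phagocyte, chemokine, complement and matrix lists lie to the right in all 3 libraries and cholesterol biosynthesis to the left, and replicate 2 (red diamonds) lies apart for oxidative phosphorylation, ribosomal proteins, ion channels and synapse genes.

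Reactive astrocyte genes were higher in most cases. Of 28 reactive astrocyte genes 23 were higher and none was lower (median 1.82; 25 higher, median 1.73, without replicate 2). The intermediate filament Vim measured 8.16, 6.21 and 10.3 FPKM at day 0 and 52.9, 95.6 and 55.6 FPKM at day 21 (log2 change 2.92 ± 0.25, adjusted p = 5.51e-05 by edgeR). Serpina3n, a serine protease inhibitor, measured 39.5, 44.8 and 44.6 FPKM at day 0 and 321, 364 and 329 FPKM at day 21 (log2 change 2.85 ± 0.10, adjusted p = 7.39e-07 by edgeR). The metalloprotease inhibitor Timp1 measured 0.451, 0.321 and 0.246 FPKM at day 0 and 14.2, 28.8 and 10.1 FPKM at day 21, with a day 21 range of more than 2-fold (log2 change 5.52 ± 0.44, adjusted p = 3.1e-05 by edgeR; 4.99 without replicate 2). Ptx3, a pattern recognition pentraxin, rose from 0.229, 0.144 and 0.0552 FPKM to 3.23, 4.68 and 3.15 FPKM (log2 change 4.48 ± 0.33, adjusted p = 1.94e-05 by edgeR).

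Of 21 homeostatic astrocyte genes 5 were lower and 1 higher (median -0.21; 8 and 2 without day 21 replicate 2, and 5 and 3 without day 21 replicate 3). With all libraries the share called was near that of all tested genes (29.2% in either direction). Glul, which makes glutamine from glutamate, measured 665, 613 and 607 FPKM at day 0 and 497, 460.4 and 446 FPKM at day 21 (log2 change -0.55 ± 0.08, adjusted p = 0.00135 by edgeR). Slc7a10, a serine and alanine exchanger, measured 34.6, 34.6 and 34.1 FPKM at day 0 and 21.5, 30.3 and 22.1 FPKM at day 21 (log2 change -0.61 ± 0.13, adjusted p = 0.00721 by edgeR). The water channel Aqp4 was the higher one and measured 83.6, 89 and 90.8 FPKM at day 0 and 220.1, 126 and 234 FPKM at day 21, with replicate 2 nearest to day 0 (log2 change 1.02 ± 0.21, adjusted p = 0.00708 by edgeR). The glutamate transporter Slc1a2 measured 126, 115 and 114 FPKM at day 0 and 97, 62.9 and 105 FPKM at day 21. Its groups did not overlap, but it did not pass the test (log2 change -0.54 ± 0.49, adjusted p = 0.456 by edgeR). By comparison, on the normalised scale of the fit the groups did not overlap for 22.2% of tested genes with day 21 above and 20.4% with day 21 below.

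Scar matrix genes were higher in all but 1 case. Of 35 collagen and scar matrix genes 34 were higher and none was lower (median 1.98; 35 higher, median 2.17, without replicate 2). Col1a1, the main fibrillar collagen of scars, measured 7.18, 7.46 and 6.96 FPKM at day 0 and 73.4, 92.4 and 68.2 FPKM at day 21 (log2 change 3.31 ± 0.12, adjusted p = 7.81e-07 by edgeR). Col3a1, its partner in young scars, measured 2.1, 2.07 and 1.94 FPKM at day 0 and 26, 31 and 27.5 FPKM at day 21 (log2 change 3.66 ± 0.10, adjusted p = 2.01e-07 by edgeR). Periostin, Postn, which binds collagen, measured 0.0826, 0.105 and 0.0611 FPKM at day 0 and 2.64, 2.51 and 2.86 FPKM at day 21 (log2 change 4.89 ± 0.18, adjusted p = 8.28e-07 by edgeR). The proteoglycan Lum measured 1.69, 2.05 and 0.985 FPKM at day 0 and 18.2, 20.3 and 18.5 FPKM at day 21 (log2 change 3.47 ± 0.22, adjusted p = 7.77e-06 by edgeR). Col8a1, a short-chain collagen, rose from 0.342, 0.385 and 0.40 FPKM to 4.22, 3.43 and 4.05 FPKM (log2 change 3.26 ± 0.15, adjusted p = 1.35e-06 by edgeR). In all 5 genes the spread among day 21 libraries was small beside the distance to day 0.

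Fibroblast and meningeal genes were higher in 15 of 22 cases and lower in none (median 1.59; 16 higher, median 1.43, without replicate 2). The organic cation exporter Slc47a1 measured 0.175, 0.107 and 0.119 FPKM at day 0 and 5.25, 5.49 and 5.11 FPKM at day 21 (log2 change 5.14 ± 0.18, adjusted p = 7.39e-07 by edgeR). The leucine-rich repeat protein Islr and the small proteoglycan Ogn measured 48.6, 51.2 and 46.6 FPKM and 17.9, 17.5 and 20.8 FPKM at day 21 against 8.59, 9.35 and 9.21 FPKM and 3.23, 3.65 and 3.02 FPKM at day 0 (log2 changes 2.3 ± 0.10 and 2.38 ± 0.13; adjusted p 1.05e-06 and 3.31e-06 by edgeR). The transcription factor Foxc2 rose from 0.504, 0.954 and 0.667 FPKM to 4.15, 5.8 and 4.08 FPKM (log2 change 2.61 ± 0.25, adjusted p = 9.07e-05 by edgeR). How much leptomeninx each piece of tissue carried is not stated, and its part in these values was not tested.

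Chondroitin sulphate proteoglycans curb axon growth. The list of chondroitin proteoglycan and perineuronal net genes did not rise as a group, but it does not hold every proteoglycan gene. On the scar matrix list, Dcn lay 2.75, 3.07 and 2.77 log2 units above its day 0 mean in day 21 replicates 1, 2 and 3. Bgn, also there, lay 2.07, 2.04 and 2.11 above. Vcan, on the oligodendrocyte precursor list, lay 0.88, -0.15 and 1.03 from its day 0 mean. Of 19 genes on that list 4 were lower and 2 higher (median -0.17; 9 and 5 without replicate 2). With all libraries the share called was near that of all tested genes (29.2% in either direction). Some genes of perineuronal nets, which coat fast-firing neurons, were among the lower ones. Hapln1, a link protein of such nets, went the other way. It lay 0.44, 0.22 and 0.60 log2 units above its day 0 mean in day 21 replicates 1, 2 and 3. Aggrecan, Acan, measured 4.3, 4.56 and 4.99 FPKM at day 0 and 2.73, 2.1 and 2.73 FPKM at day 21 (log2 change -1.0 ± 0.15, adjusted p = 0.00142 by edgeR). The link protein Hapln4 measured 90.8, 107 and 100.3 FPKM at day 0 and 60.8, 49.3 and 60.9 FPKM at day 21 (log2 change -0.93 ± 0.13, adjusted p = 0.000788 by edgeR). Neurocan, Ncan, measured 14.2, 14.7 and 15.3 FPKM at day 0 and 9.79, 6.26 and 10.3 FPKM at day 21 (log2 change -0.87 ± 0.18, adjusted p = 0.00713 by edgeR). Tenascin X, Tnxb, was higher and measured 1.19, 1.14 and 1.17 FPKM at day 0 and 4.62, 3.81 and 4.79 FPKM at day 21 (log2 change 1.8 ± 0.12, adjusted p = 1.06e-05 by edgeR).

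Endothelial genes were called at a share near that of all tested genes (29.2% in either direction). Of 27 endothelial genes 4 were higher and 3 lower (median 0.0035; 6 and 5 without day 21 replicate 2, 4 and 1 without day 0 replicate 1, and 2 and 2 without day 0 replicate 2 or 3). The clotting factor Vwf measured 1.84, 1.83 and 1.75 FPKM at day 0 and 3.31, 3.03 and 3.08 FPKM at day 21 (log2 change 0.67 ± 0.09, adjusted p = 0.000767 by edgeR). The efflux pump Abcg2 measured 2.0, 1.58 and 1.78 FPKM at day 0 and 3.14, 2.88 and 3.34 FPKM at day 21 (log2 change 0.68 ± 0.12, adjusted p = 0.00266 by edgeR). The tight junction protein Cldn5 measured 38.4, 27 and 30.1 FPKM at day 0 and 22, 48.1 and 19.5 FPKM at day 21, with replicate 2 above and the others below day 0 (log2 change -0.22 ± 0.30, adjusted p = 0.621 by edgeR). Without replicate 2 its log2 fold change was -0.73 (adjusted p = 0.00124). Pericyte and smooth muscle genes were higher in 9 of 15 cases (median 0.54; 8 and 1 lower without day 21 replicate 2, and 3, 3 and 5 higher without day 0 replicates 1, 2 and 3). The aminopeptidase Anpep measured 0.936, 0.808 and 0.92 FPKM at day 0 and 4.65, 5.04 and 4.81 FPKM at day 21 (log2 change 2.32 ± 0.11, adjusted p = 1.56e-06 by edgeR). Anpep thus lay far above the list's median. All 3 day 21 libraries lay above day 0 for 9 of the 15 genes and below it for 2 (22.2% and 20.4% of all tested genes). These 2 were Abcc9 (-0.21, -1.28 and -0.16 log2 units from its day 0 mean) and Mcam (-0.20, -0.30 and -0.18).

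Neuronal genes were lower in moderate steps. Of 22 pan-neuronal genes 15 were lower and none was higher (median -0.54; 19 lower, median -0.64, without replicate 2). The axonal neurofilaments fell together. Nefm (chromosome 14, 68082590 to 68124846) measured 567, 580.0 and 586 FPKM at day 0 and 349.5, 402 and 325 FPKM at day 21 (log2 change -0.81 ± 0.09, adjusted p = 0.000244 by edgeR). Nefh measured 504, 586 and 588 FPKM at day 0 and 328, 389.5 and 315 FPKM at day 21 (log2 change -0.83 ± 0.11, adjusted p = 0.000648 by edgeR). Nefl (chromosome 14, 68083863 to 68089095) measured 1016, 1031 and 1037 FPKM at day 0 and 645, 658 and 625 FPKM at day 21 (log2 change -0.80 ± 0.08, adjusted p = 8.87e-05 by edgeR), with 32.8% of its exon bases in Nefm. Dnm1, the dynamin of synaptic vesicle retrieval, measured 77.7, 96.7 and 89.4 FPKM at day 0 and 57.1, 45.4 and 61 FPKM at day 21 (log2 change -0.82 ± 0.14, adjusted p = 0.00299 by edgeR). The vesicle fusion regulator Cplx1 measured 743, 875 and 887 FPKM at day 0 and 594, 595 and 507 FPKM at day 21 (log2 change -0.69 ± 0.11, adjusted p = 0.00195 by edgeR). Sparcl1, a matricellular protein of astrocytes, was among the 6 largest falls in mean FPKM (log2 change -0.44 ± 0.12, adjusted p = 0.0221 by edgeR), but its call was lost under 7 of 17 alternatives, among them those without day 0 replicate 2 or 3 (adjusted p up to 0.0818).

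Motor and cholinergic neuron genes were lower in 5 of 13 cases and higher in none (median -0.49; 8 without day 21 replicate 2, and 3 without day 21 replicate 1 or day 0 replicate 1 or 2). Chat, which makes acetylcholine, measured 14.8, 15 and 18.2 FPKM at day 0 and 9.28, 8.59 and 11 FPKM at day 21 (log2 change -0.86 ± 0.15, adjusted p = 0.00338 by edgeR). Slc18a3, which loads it into vesicles, measured 41.4, 38.6 and 37.1 FPKM at day 0 and 24, 27.8 and 20.8 FPKM at day 21 (log2 change -0.82 ± 0.12, adjusted p = 0.00104 by edgeR). Chodl, a marker of fast motor neurons, measured 9.58, 8.21 and 8.1 FPKM at day 0 and 4.5, 4.0 and 4.63 FPKM at day 21 (log2 change -1.1 ± 0.17, adjusted p = 0.00148 by edgeR). In these 3 genes all day 21 libraries lay below day 0. The motor neuron factor Isl1 did not pass the test (log2 change 0.18 ± 0.28, adjusted p = 0.678 by edgeR).

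Inhibitory neuron genes were lower in 6 of 15 cases and higher in 1 (median -0.47; 8 and 2, median -0.48, without replicate 2). Slc32a1, which loads GABA and glycine into vesicles, measured 119, 113 and 108 FPKM at day 0 and 69.8, 63.6 and 64.8 FPKM at day 21 (log2 change -0.90 ± 0.09, adjusted p = 0.000123 by edgeR), with 24.9% exon overlap with another gene model. The glycine receptor subunit Glra1 measured 41, 53.6 and 51.7 FPKM at day 0 and 27.3, 13.2 and 26.3 FPKM at day 21, with replicate 2 the lowest (log2 change -1.25 ± 0.27, adjusted p = 0.00756 by edgeR; -0.98 without it). Gjd2, the connexin of electrical synapses, measured 8.99, 6.92 and 7.14 FPKM at day 0 and 3.95, 3.32 and 4.13 FPKM at day 21 (log2 change -1.14 ± 0.15, adjusted p = 0.00052 by edgeR). Excitatory and dorsal horn genes showed 4 lower and 2 higher of 17 (median -0.054), a share near the 29.2% called among all tested genes. Without day 21 replicate 2, 7 were lower and the median was -0.30, and without day 0 replicate 2 or 3, 1 was lower. The opioid precursor Pdyn measured 6.32, 5.07 and 5.0 FPKM at day 0 and 3.56, 4.41 and 3.88 FPKM at day 21 (log2 change -0.59 ± 0.13, adjusted p = 0.00768 by edgeR).

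Ion channel and synapse lists were lower with a clear mark of replicate 2. Of 19 ion channel genes 7 were lower and none was higher (median -0.67). Without replicate 2, 15 were lower with a smaller median of -0.50, and without day 21 replicate 3, 11 were lower. By library the list's median difference from day 0 was -0.48, -1.3 and -0.46 in replicates 1, 2 and 3. Scn4b, a sodium channel beta subunit, measured 142, 119.5 and 119 FPKM at day 0 and 74.1, 61.8 and 70.1 FPKM at day 21 (log2 change -1.01 ± 0.11, adjusted p = 0.000185 by edgeR). Of 31 synapse and transmitter receptor genes 14 were lower and 1 higher (median -0.58; 15 and 4, median -0.34, without day 21 replicate 2, and 9 lower without day 0 replicate 2 or 3). Grin1, the obligate NMDA receptor subunit, measured 21.8, 24.6 and 24 FPKM at day 0 and 15, 10.3 and 14.8 FPKM at day 21 (log2 change -0.93 ± 0.16, adjusted p = 0.0026 by edgeR). The higher gene was Gabra2, a GABA-A receptor subunit, which measured 1.13, 1.37 and 1.27 FPKM at day 0 and 2.76, 2.86 and 3.23 FPKM at day 21 (log2 change 1.1 ± 0.14, adjusted p = 0.000574 by edgeR).

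Transection cuts the descending serotonin fibres, which act on receptors in the cord. Of 12 receptor genes tested, 1 passed the test. Htr2b, also found in microglia and blood vessels, had 2 counts at day 0, measured 0.902, 1.14 and 1.1 FPKM at day 21 and was 71.7-fold higher (95% interval of the counts 19.4 to 599). Htr2a and Htr2c, the excitatory receptors of motor neurons, did not pass (log2 changes -0.66 ± 0.46 and -0.24 ± 0.22; adjusted p 0.326 and 0.456 by edgeR). Without day 21 replicate 1, 2 of the 12 were lower.

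Myelin genes were lower in part. Of 27 oligodendrocyte and myelin genes 10 were lower and none was higher (median -0.40). Without day 21 replicate 2, 17 were lower and 2 higher, and 6, 5 and 6 were lower without day 21 replicate 1, day 0 replicate 1 and day 0 replicate 3. The receptor Gpr37 measured 35.8, 32.5 and 31 FPKM at day 0 and 22.8, 21.1 and 23 FPKM at day 21 (log2 change -0.69 ± 0.10, adjusted p = 0.000958 by edgeR). Nipal4 measured 11.4, 11 and 11.3 FPKM at day 0 and 6.41, 6.95 and 7.39 FPKM at day 21 (log2 change -0.82 ± 0.10, adjusted p = 0.000468 by edgeR). The lineage factor Olig2 measured 34.9, 29.7 and 32.7 FPKM at day 0 and 20.7, 26.7 and 19 FPKM at day 21 (log2 change -0.68 ± 0.13, adjusted p = 0.00462 by edgeR). The major structural genes Mbp and Mog did not pass the test. Mbp, the basic protein of compact myelin, measured 179, 262 and 323 FPKM at day 0 and 240.1, 185 and 277 FPKM at day 21, and its groups overlapped (log2 change -0.25 ± 0.23, adjusted p = 0.451 by edgeR). Mog, on the outer surface of myelin, measured 186, 117 and 117 FPKM at day 0 and 88.1, 140.0 and 89.4 FPKM at day 21 (log2 change -0.52 ± 0.21, adjusted p = 0.0937 by edgeR), with -0.76 and adjusted p = 0.00943 without replicate 2. Oligodendrocyte precursor genes showed 2 higher and 1 lower of 16 (median -0.032; 29.2% of all tested genes were called in either direction). Without replicate 2 they showed 7 higher and 4 lower (median 0.16), and without day 0 replicates 1, 2 and 3 they showed 0 higher with 1, 0 and 0 lower.

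Markers of tissue outside the cord were present and moved with the groups. Skeletal muscle genes were higher in 22 of 28 cases and lower in 1 (median 2.54; 21 and 2, median 2.27, without replicate 2), and their summed level rose from 78.4 to 88.1 FPKM at day 0 to 216 to 394 FPKM at day 21. Acta1, muscle actin, measured 7.26, 4.07 and 4.52 FPKM at day 0 and 49.6, 74.8 and 45.8 FPKM at day 21 (log2 change 3.29 ± 0.25, adjusted p = 2.14e-05 by edgeR). Ckm, muscle creatine kinase, measured 4.18, 4.39 and 3.65 FPKM at day 0 and 28.9, 46.5 and 27.8 FPKM at day 21 (log2 change 2.95 ± 0.22, adjusted p = 2.18e-05 by edgeR). The largest log2 changes of this list were in myosin heavy chains of fast fibres, with Myh2 at 2.31, 3.27 and 2.52 FPKM against 0.0439, 0.0418 and 0.0599 FPKM (log2 change 5.65 ± 0.30, adjusted p = 3.31e-06 by edgeR). The calcium pump of fast fibres Atp2a1 measured 15.7, 22.2 and 15.1 FPKM against 1.1, 0.737 and 1.11 FPKM (log2 change 4.03 ± 0.24, adjusted p = 5.95e-06 by edgeR; 21.9% exon overlap with another gene). Slow-fibre genes Tnnc1 and Myl2 did not pass the test (log2 changes 0.50 ± 0.34 and 0.81 ± 0.54; adjusted p 0.312 and 0.302 by edgeR). The cord has no skeletal muscle of its own, and how much paravertebral muscle each sample carried was not tested.

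Peripheral nerve and ganglion genes were higher too. Schwann cell genes were higher in 13 of 16 cases and lower in none (median 1.06; 13 higher, median 1.01, without replicate 2), and their summed level was 172 to 204 FPKM at day 0 and 308 to 389 FPKM at day 21. Egr2, the factor that drives Schwann cell myelination, rose from 0.414, 0.479 and 0.774 FPKM to 1.98, 1.98 and 2.26 FPKM (log2 change 1.77 ± 0.23, adjusted p = 0.000643 by edgeR). The neurotrophin receptor Ngfr rose from 1.94, 2.25 and 1.68 FPKM to 5.64, 4.43 and 5.5 FPKM (log2 change 1.29 ± 0.15, adjusted p = 0.000306 by edgeR). Of 15 peripheral sensory neuron genes 9 were higher and 1 lower (median 3.32, or 2.20 with genes of 0 to 3 day 0 counts at their bound or counted ratio; 9 and 1 without replicate 2), with a summed level of 14.8 to 17.6 FPKM at day 0 and 27.5 to 36 FPKM at day 21. Scn10a, the sodium channel Nav1.8 of pain fibres, had 2 counts at day 0, measured 1.42, 1.2 and 1.73 FPKM at day 21 and was 246-fold higher (95% interval of the counts 67.7 to 2037). Tmem233 was 146-fold higher (95% interval of the counts 40.1 to 1215). The actin-binding protein Avil measured 0.0403, 0.0461 and 0.0825 FPKM at day 0 and 2.17, 3.25 and 2.44 FPKM at day 21 (log2 change 5.4 ± 0.26, adjusted p = 1.8e-06 by edgeR). These genes are defining markers of cells whose bodies lie outside the cord, and the part of attached roots or ganglia was not tested. Of 5 tested adipocyte genes of 10 listed, 4 were higher and none was lower (median 1.73; 4 higher, median 1.66, without replicate 2), with a summed level of 6.04 to 7.27 FPKM at day 0 and 10.7 to 16 FPKM at day 21. Car3, a carbonic anhydrase that skeletal muscle makes too, measured 0.872, 1.11 and 1.04 FPKM at day 0 and 3.46, 4.08 and 3.34 FPKM at day 21 (log2 change 1.73 ± 0.23, adjusted p = 0.000633 by edgeR). The lipid droplet protein Plin4 measured 0.816, 0.77 and 0.966 FPKM at day 0 and 2.01, 1.3 and 2.32 FPKM at day 21 (log2 change 1.02 ± 0.21, adjusted p = 0.00651 by edgeR). The others, Ucp1 and Pck1, named after their values were seen, measured 0.579, 1.55 and 0.596 FPKM and 0.17, 0.343 and 0.237 FPKM at day 21 against 0.0506, 0.0386 and 0.0345 FPKM and 0.0445, 0 and 0.0607 FPKM at day 0. The defining markers Adipoq, Plin1 and Lep were too low to be tested, with Adipoq at 0, 0.0397 and 0 FPKM and 0.119, 0.602 and 0.0874 FPKM, Plin1 at 0, 0.0299 and 0 FPKM and 0.0599, 0.0648 and 0 FPKM and Lep at 0 in all 6 libraries. The part of adipose tissue was not tested. Red cell genes were higher in 4 of 7 cases, but 2 and 1 without day 0 replicates 2 and 3, and the globin Hbb-bs measured 11.3, 2.01 and 2.1 FPKM at day 0 and 3.73, 9.0 and 5.12 FPKM at day 21 (log2 change 0.083 ± 0.60, adjusted p = 0.937 by edgeR).

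The PANoptosis core genes of the study's title were mostly higher and at low levels. Of 21 tested genes 13 were higher and 1 lower (median 1.46; 15 and 1, median 1.24, without replicate 2). Among sensors beside Zbp1, Aim2, which binds cytosolic DNA, measured 0.465, 0.535 and 0.333 FPKM at day 0 and 1.77, 2.17 and 2.19 FPKM at day 21 (log2 change 2.07 ± 0.21, adjusted p = 0.000131 by edgeR). Nlrp3 measured 0.162, 0.246 and 0.143 FPKM at day 0 and 0.567, 0.574 and 0.503 FPKM at day 21 (log2 change 1.46 ± 0.23, adjusted p = 0.00161 by edgeR). The inflammasome adaptor Pycard measured 0.639, 0.479 and 0.402 FPKM at day 0 and 2.23, 2.89 and 2.16 FPKM at day 21 (log2 change 2.12 ± 0.19, adjusted p = 6.06e-05 by edgeR). Sensors Mefv, Nlrc4 and Nlrp12 were too low to be tested, with Mefv at 0 in all 6 libraries. The regulator Irf1 was higher (log2 change 1.55 ± 0.23, adjusted p = 0.00135 by edgeR).

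Of the caspases and pore-forming proteins on that list, Casp1, which cleaves interleukins and Gsdmd, measured 1.0, 0.678 and 0.569 FPKM at day 0 and 2.67, 4.5 and 2.52 FPKM at day 21 (log2 change 1.95 ± 0.30, adjusted p = 0.00159 by edgeR). Casp4 rose from 0.0344, 0.105 and 0.0351 FPKM to 0.576, 1.02 and 0.736 FPKM (log2 change 3.66 ± 0.40, adjusted p = 0.000199 by edgeR). Casp8, which links apoptosis to the other paths, measured 0.538, 0.939 and 0.749 FPKM at day 0 and 2.41, 3.18 and 2.58 FPKM at day 21 (log2 change 1.76 ± 0.21, adjusted p = 0.00036 by edgeR). Casp6 measured 0.417, 0.334 and 0.401 FPKM at day 0 and 0.688, 0.678 and 0.69 FPKM at day 21 (log2 change 0.71 ± 0.14, adjusted p = 0.00636 by edgeR). The pore protein Gsdmd measured 1.45, 1.25 and 1.34 FPKM at day 0 and 4.43, 6.12 and 5.08 FPKM at day 21 (log2 change 1.82 ± 0.15, adjusted p = 4.09e-05 by edgeR). Dfna5, which encodes gasdermin E, was the lower one and measured 1.19, 0.874 and 0.962 FPKM at day 0 and 0.65, 0.956 and 0.646 FPKM at day 21, with replicate 2 inside the day 0 range (log2 change -0.55 ± 0.17, adjusted p = 0.0377 by edgeR). Its call was lost without any 1 library other than day 21 replicate 2 (adjusted p up to 0.161).

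The necroptosis genes and cytokines were less certain. The kinase Ripk3 measured 0.112, 0.0568 and 0.152 FPKM at day 0 and 0.199, 0.708 and 0.282 FPKM at day 21 (log2 change 1.7 ± 0.54, adjusted p = 0.0433 by edgeR). This rested on replicate 2: without it the log2 fold change was 1.01 (adjusted p = 0.11). Its call was also lost without any 1 day 0 library. Mlkl, the pore protein that Ripk3 activates, measured 0.0486, 0.148 and 0.199 FPKM at day 0 and 0.315, 0.341 and 0.326 FPKM at day 21, and its groups did not overlap (log2 change 1.24 ± 0.41, adjusted p = 0.0507 by edgeR; adjusted p = 0.0476 without replicate 2). Ripk1 did not pass the test (log2 change 0.53 ± 0.35, adjusted p = 0.297 by edgeR), except without replicate 2 (0.86, adjusted p = 0.00864). The adaptors Fadd and Tradd and the membrane rupture protein Ninj1 did not pass it either (log2 changes 0.28 ± 0.15, 0.15 ± 0.23 and 0.55 ± 0.25; adjusted p 0.183, 0.681 and 0.128 by edgeR). Il1b, an interleukin released by these pathways, measured 0.0531, 0 and 0.0483 FPKM at day 0 and 0.621, 0.205 and 0.357 FPKM at day 21 (log2 change 3.22 ± 0.64, adjusted p = 0.00536 by edgeR). Il18 measured 11.8, 8.62 and 8.82 FPKM at day 0 and 12.6, 23.8 and 12.5 FPKM at day 21 without passing the test (log2 change 0.61 ± 0.25, adjusted p = 0.0996 by edgeR).

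Cell division genes were still above day 0 at day 21. Of 30 genes 24 were higher and 1 lower (median 1.6; 24 and 1, median 1.57, without replicate 2). The proliferation antigen Mki67 measured 0.0909, 0.139 and 0.0563 FPKM at day 0 and 1.57, 0.86 and 1.65 FPKM at day 21 (log2 change 3.73 ± 0.34, adjusted p = 7.22e-05 by edgeR). The mitotic kinase Plk1 measured 0.206, 0.392 and 0.35 FPKM at day 0 and 0.881, 1.42 and 1.21 FPKM at day 21 (log2 change 1.79 ± 0.27, adjusted p = 0.00133 by edgeR). The cyclin Ccnb2 measured 0.216, 0.247 and 0.295 FPKM at day 0 and 1.07, 1.12 and 0.817 FPKM at day 21 (log2 change 1.86 ± 0.23, adjusted p = 0.000446 by edgeR). All 3 genes were higher in each day 21 library than in any day 0 library. The lower one was the transcription factor E2f1 (log2 change -0.48 ± 0.14, adjusted p = 0.0256 by edgeR), a call lost under 9 of 17 alternatives, among them those without day 21 replicate 1 or day 0 replicate 2 or 3. Axon regeneration genes were higher in 11 of 20 cases (median 0.60; 11 higher and 2 lower without replicate 2). Beside Sprr1a, the injury factor Atf3 measured 0.633, 0.272 and 0.31 FPKM at day 0 and 6.07, 7.48 and 5.95 FPKM at day 21 (log2 change 3.82 ± 0.25, adjusted p = 1.04e-05 by edgeR). The cytokine signal inhibitor Socs3 measured 0.62, 0.502 and 0.88 FPKM at day 0 and 5.42, 6.17 and 4.93 FPKM at day 21 (log2 change 2.91 ± 0.19, adjusted p = 1.08e-05 by edgeR). Basp1, a growth cone protein, did not pass the test (log2 change -0.14 ± 0.21, adjusted p = 0.657 by edgeR), except without replicate 2, where it was lower (-0.40, adjusted p = 0.0437).

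The largest rise among iron genes was in a transporter of macrophages. Of 15 genes 7 were higher and 2 lower (median 0.42; 8 and 6 without replicate 2). The phagosomal metal transporter Slc11a1 measured 0.347, 0.397 and 0.348 FPKM at day 0 and 4.0, 4.93 and 4.25 FPKM at day 21 (log2 change 3.47 ± 0.14, adjusted p = 8.28e-07 by edgeR). Hmox1, which breaks down haem, measured 3.25, 3.89 and 3.57 FPKM at day 0 and 10.5, 12.5 and 9.39 FPKM at day 21 (log2 change 1.47 ± 0.13, adjusted p = 5.44e-05 by edgeR). The ferrireductase Steap3 measured 0.72, 0.75 and 0.699 FPKM at day 0 and 2.39, 2.57 and 2.39 FPKM at day 21 (log2 change 1.63 ± 0.10, adjusted p = 6.42e-06 by edgeR). The transferrin receptor Tfrc was lower (log2 change -0.58 ± 0.13, adjusted p = 0.00881 by edgeR).

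Of 17 circadian clock genes 6 were higher and 3 lower (median 0.23; 9 and 3 without day 21 replicate 2, and 3 higher without day 21 replicate 1 or day 0 replicate 1 or 2). The core activator Arntl measured 6.18, 6.79 and 6.61 FPKM at day 0 and 4.72, 3.34 and 4.09 FPKM at day 21 (log2 change -0.81 ± 0.15, adjusted p = 0.00443 by edgeR). Its output gene Dbp measured 10.3, 8.11 and 8.93 FPKM at day 0 and 22.2, 34.7 and 16.8 FPKM at day 21 (log2 change 1.3 ± 0.23, adjusted p = 0.00293 by edgeR; 0.99 without replicate 2). The hour of tissue collection is not stated, and its part was not tested.

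Hox genes keep a record of position along the cord. Of 6 tested lumbosacral Hox genes 4 were lower and none was higher (median -0.82; 4 lower, median -0.73, without replicate 2). Hoxc10 measured 43.1, 51.4 and 54.5 FPKM at day 0 and 27.1, 26.1 and 23.7 FPKM at day 21 (log2 change -1.08 ± 0.13, adjusted p = 0.000323 by edgeR). Hoxa10 measured 5.05, 4.15 and 4.39 FPKM at day 0 and 2.75, 2.31 and 2.34 FPKM at day 21 (log2 change -1.0 ± 0.12, adjusted p = 0.000378 by edgeR). Hoxd10 measured 7.75, 7.82 and 7.0 FPKM at day 0 and 5.03, 3.82 and 4.78 FPKM at day 21 (log2 change -0.85 ± 0.15, adjusted p = 0.00275 by edgeR). In each the day 21 libraries lay below day 0. Among 17 cervical and thoracic Hox genes 3 were lower and 1 higher (median -0.20; 7 and 1 without replicate 2). With all libraries this share was near the 29.2% called among all tested genes. Hoxb9 measured 44, 48.1 and 43.3 FPKM at day 0 and 31.9, 31.3 and 32.5 FPKM at day 21 (log2 change -0.63 ± 0.10, adjusted p = 0.0014 by edgeR). Hoxd9 measured 16.5, 14.7 and 14.7 FPKM at day 0 and 6.92, 11.5 and 5.53 FPKM at day 21 (log2 change -1.07 ± 0.22, adjusted p = 0.00667 by edgeR). Whether the level of cord taken differed between the groups was not tested. Of 22 tested ependymal and cilia genes 6 were higher, against 17.9% of all tested genes (median 0.42; 6 without day 21 replicate 2, and 2, 3 and 3 without day 0 replicates 1, 2 and 3). The cilia factor Foxj1 did not pass the test (log2 change 0.11 ± 0.12, adjusted p = 0.529 by edgeR).

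For energy metabolism the result depended on day 21 replicate 2, and day 0 replicate 1 stood apart as well. Of 80 nuclear oxidative phosphorylation genes 5 were lower and 2 higher (median -0.15), but without replicate 2 50 were lower and 2 higher (median -0.58). By library the median difference from day 0 was -0.47, 0.54 and -0.67 in replicates 1, 2 and 3. The summed level of the list was 6181, 4273 and 4439 FPKM in day 0 replicates 1, 2 and 3. At day 21 it was 3718, 7519 and 3120 FPKM. A fit without both day 0 replicate 1 and day 21 replicate 2 was not run. Atp5a1, a subunit of ATP synthase, measured 208, 193 and 196 FPKM at day 0 and 138, 159 and 128 FPKM at day 21 (log2 change -0.62 ± 0.10, adjusted p = 0.00181 by edgeR). Sdha, of complex II, measured 135, 127 and 127 FPKM at day 0 and 94.1, 93.2 and 98 FPKM at day 21 (log2 change -0.57 ± 0.08, adjusted p = 0.000942 by edgeR). Cox6a2, the muscle form of a cytochrome oxidase subunit, was higher (1.04, 0.56 and 0.417 FPKM at day 0 and 7.93, 17.8 and 5.96 FPKM at day 21; log2 change 3.77 ± 0.48, adjusted p = 0.000547 by edgeR), as the muscle markers were. Ribosomal protein genes showed 7 of 79 higher with all libraries and 6 higher and 4 lower without replicate 2. The count was 12 and 13 without day 21 replicates 1 and 3, and 3, 2 and 3 without day 0 replicates 1, 2 and 3. Their median difference from day 0 by library was 0.025, 1.11 and -0.18.

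Among genes of the mitochondrial genome, mt-Atp6 moved apart from the rest. mt-Atp6, a subunit of ATP synthase, measured 1264, 1766 and 1708 FPKM at day 0 and 13175, 2916 and 13974 FPKM at day 21 (log2 change 2.55 ± 0.50, adjusted p = 0.00501 by edgeR; 2.99, adjusted p = 1.39e-06, without replicate 2). Its share of all counts was 0.086 to 0.12% at day 0 and 0.897, 0.199 and 0.952% in day 21 replicates 1, 2 and 3. In these libraries mt-Atp6 lay 2.97, 0.74 and 3.05 log2 units above its day 0 mean. The other ATP synthase gene, mt-Atp8, lay 0.60, -0.34 and 0.66 from its own. How reads were assigned between these genes was not tested, so the value of mt-Atp6 is uncertain. The other 12 mitochondrial genes did not rise with all libraries, and mt-Atp8 and mt-Nd5 passed the test without replicate 2 (0.61 and 0.82, adjusted p = 0.00938 and 0.0165). mt-Nd6 was lower (116, 116 and 124 FPKM at day 0 and 87.9, 87.4 and 68.2 FPKM at day 21; log2 change -0.67 ± 0.12, adjusted p = 0.00365 by edgeR).

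The lowest called genes at 5 FPKM or more were neuronal or broadly expressed, and several calls rested on single libraries. The scaffold gene Ccdc85c (chromosome 12, 108206345 to 108275417) measured 30.1, 27.9 and 26.7 FPKM at day 0 and 15, 7.38 and 13.4 FPKM at day 21 (log2 change -1.36 ± 0.23, adjusted p = 0.00273 by edgeR). Srgap3, a regulator of neurite branching (chromosome 6, 112717971 to 112947266), measured 24, 27.5 and 26.2 FPKM at day 0 and 5.25, 10.9 and 5.56 FPKM at day 21 (log2 change -1.98 ± 0.47, adjusted p = 0.013 by edgeR), with adjusted p up to 0.0467 when 1 library was left out. Pogk, a gene derived from a transposon (chromosome 1, 166384622 to 166409863), measured 5.72, 5.26 and 4.94 FPKM at day 0 and 1.41, 2.28 and 2.21 FPKM at day 21 (log2 change -1.56 ± 0.32, adjusted p = 0.00605 by edgeR). Atp8a2, a neuronal phospholipid flippase (chromosome 14, 59647531 to 60197179), measured 11.9, 10.2 and 10.6 FPKM at day 0 and 5.76, 1.85 and 5.73 FPKM at day 21 (log2 change -1.41 ± 0.36, adjusted p = 0.0173 by edgeR; -1.04 without replicate 2). Its call was lost when only the 6 libraries were fitted. The synaptic adhesion protein Lrrc4b had the most negative change of these genes (log2 change -2.0 ± 0.60, adjusted p = 0.0346 by edgeR). It measured 65.5, 73.5 and 23.2 FPKM at day 0 and 16.9, 13.1 and 13.8 FPKM at day 21, and the third day 0 library lay far below the other two. Lrrc4b, the survival factor Bcl2l2, the spectrin-binding adducin Add2 and the small GTPase Rhof were not called without replicate 2 (adjusted p = 0.131, 0.139, 0.0525 and 0.0676) and were lost without other libraries as well.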

How the data were processed

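Poly-A selected RNA was sequenced as paired-end reads on an Illumina platform, per the labels' protocols. HISAT2, StringTie and the build GRCh38, a human build, appear in the submitters' processing notes. The deposited gene identifiers are of mouse, and 34267 of 34745 were found in the mouse GENCODE M21 annotation. The authors deposited a table of whole-number counts and of FPKM per gene and library. How strand was used in counting is not stated in the labels, so overlapping genes cannot be told apart, and overlaps were taken from GENCODE M21. Promoters came from RefSeq (GRCm38.p6).

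From the counts, edgeR 4.0.16 (R 4.3.3) with TMM factors, filterByExpr and a robust quasi-likelihood fit was run over all 9 libraries, with 6 residual degrees of freedom, and the contrast of day 21 and day 0 was tested in 16494 genes with Benjamini-Hochberg adjustment. A standard error is the fold change divided by the square root of F. FPKM are printed as deposited and are not TMM-scaled. The procedure was tested on simulated data. Alternatives used limma 3.58.1 and DESeq2 1.42.0. Genes named are, per list, up to 5 called genes of largest change at 1 FPKM or more, together with all PANoptosis genes, cell type markers, the 10 highest and 10 lowest called genes at 5 FPKM or more and the 6 largest rises and falls in mean FPKM among called genes (leaving out unnamed gene models and ribosomal, haemoglobin, mitochondrial and antigen receptor genes); genes of the motif search and exceptions of lists were added. Some genes that this rule names are not reported here. Lists and members were chosen with earlier results of these data known.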

Additional observations from a re-analysis of the deposited data

How the results depend on the processing

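The number of higher genes lay between 2108 and 4367 under the alternatives tried, except for 1395 among genes with at least 5 FPKM in 3 libraries, where fewer genes were tested. The number of lower genes moved more. It was 691 with that FPKM filter, 801 when only the 6 libraries of day 0 and day 21 were fitted, 3956 with limma voom and sample weights, and 1218 and 1152 with limma on log2(FPKM + 1) and log2(FPKM + 0.1). Leaving out 1 library gave 2262 to 4207 higher and 1011 to 3748 lower genes; the cause was not tested. Upper-quartile factors moved the median of all genes to 0.10 and limma on log2(FPKM + 0.1) to 0.11 log2 units.

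Among named genes the sign changed only for genes that did not pass the test with all libraries. Without the count filter, Abcg1 was at -0.044 and Sall1 at -0.050. Leaving out 1 library at a time gave -0.11 to 0.16 for Abcg1, -0.40 to 0.076 for Basp1, -0.35 to 1.4 for Hbb-bs, -0.43 to 0.0047 for Htr2c, -0.18 to 0.30 for Sall1 and -0.15 to 0.34 for Tradd.

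Same-numbered libraries of both days did not deviate together (correlations -0.15, -0.12 and 0.11). The highest correlation was 0.23, between day 0 replicate 1 and day 21 replicate 2, which both stood apart from their groups. With 3 libraries per group this can neither show nor exclude pairs, and the replicate numbers were not taken as pairs. With a replicate block 2516 genes were higher and 1318 lower, and Sall1 was at -0.026. At 14299679 to 24022923 counts per library, genes with few counts in both groups could not be tested.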
